A study of Mus musculus with 12 samples.

Results

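Choroid plexus genes were followed in RNA from mouse subcortical white matter. The 8 genes Ttr, Kl, Folr1, Clic6, Otx2, Aqp1, Kcne2 and Enpp2 were taken by name, as genes known for the epithelium of the choroid plexus; the rule sets no threshold on a measured value, though earlier results of these data were known when the genes were picked. Each symbol matched 1 locus of the 33864 loci in the deposited table, and that locus carried no other symbol. Expression was measured in FPKM, fragment counts scaled to transcript length and to the depth of the library, in 1 library from each of 12 mice.

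The mice came from 2 lines with 3 mice in each of 4 groups. dnEGFR mutants had the genotype Sox10-tTA;TRE-dnEGFR, and each was set against a littermate with TRE-dnEGFR alone; both groups had doxycycline from P21 to P35 and were sampled at P35. ErbB2V664E mutants had the genotype Sox10-tTA;TRE-ErbB2V664E, and each was set against a littermate with TRE-ErbB2V664E alone; both groups had doxycycline from P21 to P30 and were sampled at P30. The study's title gives the question as activation or inhibition of ErbB receptors in oligodendroglial cells, the lineage in which Sox10 is active in brain. The labels do not say whether doxycycline turned the transgenes on or off. No group analysed here carried Sox10-tTA without a TRE transgene. Line, age and length of doxycycline exposure changed together, so differences in level between the lines cannot be told apart from any of them.

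The choroid plexus is a sheet of epithelium around leaky capillaries that hangs in the brain's ventricles. Its epithelial cells secrete cerebrospinal fluid through ion transporters and water channels, form a barrier with tight junctions, and release or carry hormone carriers, vitamins and growth factors into the fluid. White matter itself holds no such epithelium, while the ventricles border on it, and Ttr is commonly read as the marker of choroid plexus in brain tissue. In bulk RNA, fewer cells of a type and less RNA per cell cannot be told apart.

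Oligodendrocyte genes were abundant in every library, as the label of white matter implies. Mbp, the myelin basic protein, lay between 427 and 866 FPKM, and 20 oligodendrocyte genes summed to between 910 and 2177 FPKM. The 8 choroid plexus genes summed to between 34.2 and 839 FPKM. Most of the sum was Ttr, except in the libraries with the least Ttr, where it was Enpp2. Those were ErbB2V664E mutant 2, with 9.49 FPKM of Ttr and 22.0 FPKM of Enpp2, and dnEGFR control 1, with 17.53 and 53.9 FPKM. The depth, estimated from the smallest FPKM steps of loci with 1 transcript, was between 16596894 and 24739604 fragments per library, so that 1 FPKM on a transcript of 2 kb stood for 33.2 to 49.5 fragments. For loci above 1 FPKM in all 12 libraries, the ratio of each library to the locus's geometric mean was taken. Its median over loci lay between 0.99 and 1.03, so the FPKM scale differed little between libraries.

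Ttr encodes transthyretin, the carrier of thyroxine that choroid plexus epithelium secretes into cerebrospinal fluid. Its level was 395, 689 and 128 FPKM in dnEGFR mutants 1, 2 and 3, against 17.53, 699 and 607 FPKM in their littermate controls 1, 2 and 3. It was 617, 9.49 and 92.4 FPKM in ErbB2V664E mutants 1, 2 and 3, against 244, 545 and 236 FPKM in ErbB2V664E controls 1, 2 and 3. A single library stood far below its group in the dnEGFR controls, and a single one far above its group in the ErbB2V664E mutants. The mutant and control ranges overlapped in both lines. Within a group the highest library exceeded the lowest by 5.36-fold in dnEGFR mutants, 39.9-fold in dnEGFR controls, 64.9-fold in ErbB2V664E mutants and 2.31-fold in ErbB2V664E controls. By estimate these levels rested on 236 to 17810 fragments, so counting error is small beside this spread.

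Enpp2 encodes autotaxin, the secreted enzyme that makes lysophosphatidic acid, and is known from oligodendrocytes as well as from choroid plexus. It had 89.4, 86.2 and 42.3 FPKM in dnEGFR mutants, against 53.9, 124 and 116 FPKM in dnEGFR controls. It had 147, 22.0 and 30.1 FPKM in ErbB2V664E mutants, against 115, 164 and 97.5 FPKM in ErbB2V664E controls. ErbB2V664E mutants 2 and 3 lay below every control of that line, while ErbB2V664E mutant 1 lay inside the control range.

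Kl encodes klotho, the co-receptor for FGF23 whose shed outer part reaches the cerebrospinal fluid. Its level was 1.27, 0.944 and 0.333 FPKM in dnEGFR mutants, against 0.254, 1.77 and 1.05 FPKM in dnEGFR controls. It was 4.78, 0.314 and 0.619 FPKM in ErbB2V664E mutants, against 2.45, 8.32 and 3.27 FPKM in ErbB2V664E controls. As for Enpp2, ErbB2V664E mutants 2 and 3 lay below all 3 controls and mutant 1 among them. All 3 ErbB2V664E controls exceeded all 6 libraries of the dnEGFR line in Kl, a difference in level between mice of different lines and ages.

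Folr1 encodes folate receptor alpha, which carries folate across the choroid plexus epithelium. It had 1.59, 2.53 and 0.651 FPKM in dnEGFR mutants, against 0.168, 2.39 and 2.63 FPKM in dnEGFR controls. It had 2.91, 0.128 and 0.457 FPKM in ErbB2V664E mutants, against 1.51, 3.09 and 1.54 FPKM in ErbB2V664E controls. The low libraries were those that were low in Ttr, and both pairs of groups overlapped.

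Aqp1 encodes the water channel of the epithelium's ventricular face. Its level was 0.863, 1.93 and 0.472 FPKM in dnEGFR mutants, against 0.247, 1.78 and 1.56 FPKM in dnEGFR controls. It was 2.71, 0.149 and 0.363 FPKM in ErbB2V664E mutants, against 0.904, 1.52 and 1.52 FPKM in ErbB2V664E controls. ErbB2V664E mutant 1 was above every control of its line and mutants 2 and 3 below every one.

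Clic6 belongs to the family of intracellular chloride channel proteins. It had 2.39, 5.05 and 1.83 FPKM in dnEGFR mutants, against 1.39, 6.28 and 4.68 FPKM in dnEGFR controls. It had 9.46, 1.92 and 3.13 FPKM in ErbB2V664E mutants, against 4.33, 6.83 and 2.27 FPKM in ErbB2V664E controls. The groups overlapped in both lines, and over the 12 libraries Clic6 had the smallest range of the 7 genes that were above 0 throughout, 6.81-fold, against 73.7-fold for Ttr, 32.8-fold for Kl, 25.3-fold for Otx2, 24.1-fold for Folr1, 18.2-fold for Aqp1 and 7.49-fold for Enpp2.

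Kcne2 encodes a small subunit that modifies potassium channels in the choroid plexus epithelium. It was listed at 0 in dnEGFR mutants 1 and 2 and at 2.96e-05 FPKM in dnEGFR mutant 3, against 0.216, 2.74 and 0.159 FPKM in dnEGFR controls. It had 4.90, 0.135 and 0.557 FPKM in ErbB2V664E mutants, against 1.58, 4.18 and 1.93 FPKM in ErbB2V664E controls. The dnEGFR mutants thus lay below the dnEGFR controls without overlap, while the ErbB2V664E groups overlapped. Kcne2 was listed near 0 even in dnEGFR mutant 2, the library with 689 FPKM of Ttr, and in dnEGFR control 3 it stood at 0.159 FPKM beside 607 FPKM of Ttr. An exact 0 in such a table can be a failed estimate; Cldn5, a tight junction gene of every brain endothelium, was also listed at 0 in 4 libraries. For that reason no ratio of FPKM is given for the dnEGFR mutants.

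Otx2 encodes the homeodomain factor that choroid plexus needs to form and to persist, and it binds the sequence TAATCC. It had 0.271, 0.386 and 0.133 FPKM in dnEGFR mutants, against 0.0552, 0.627 and 0.374 FPKM in dnEGFR controls. It had 0.857, 0.0844 and 0.121 FPKM in ErbB2V664E mutants, against 0.313, 1.40 and 0.620 FPKM in ErbB2V664E controls. The groups overlapped in both lines. By mean FPKM Otx2 was the lowest of the 8 genes in every group but the dnEGFR mutants, where Kcne2 was, and its levels rested on an estimated 2.17 to 57.4 fragments. It did not reach 1 FPKM in 3 libraries and was therefore not tested.

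Promoters picked from the RefSeq promoter table (build GRCm38.p6) are shown because Otx2 is itself a choroid plexus gene, so its site can be looked for in front of others. The chromosome of Ttr was left out when windows of the 8 genes were picked, so no promoter of Ttr was searched. Windows were picked for 4 of the 8 genes, 8 windows in all, 1 each for Kl and Aqp1, 2 for Kcne2 and 4 for Otx2. The 250 bases before the start were searched for TAATCC on both strands (GGATTA on the other). The first sequence is the Otx2 window at chr14:48665110-48665359 on the minus strand, the second is the Kl window at chr5:150952357-150952606 and the third is the Aqp1 window at chr6:55336049-55336298, the last 2 on the plus strand. Capitals mark the match.
Otx2: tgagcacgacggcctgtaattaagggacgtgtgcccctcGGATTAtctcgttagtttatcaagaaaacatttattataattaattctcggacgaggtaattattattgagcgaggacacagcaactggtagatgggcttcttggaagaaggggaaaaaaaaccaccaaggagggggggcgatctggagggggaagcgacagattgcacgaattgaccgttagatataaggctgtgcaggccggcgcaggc
Kl: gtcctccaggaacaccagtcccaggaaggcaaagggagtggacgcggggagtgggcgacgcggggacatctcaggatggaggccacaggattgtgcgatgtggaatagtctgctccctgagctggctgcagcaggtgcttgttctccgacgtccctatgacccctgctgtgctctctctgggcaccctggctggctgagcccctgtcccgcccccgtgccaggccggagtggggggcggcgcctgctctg
Aqp1: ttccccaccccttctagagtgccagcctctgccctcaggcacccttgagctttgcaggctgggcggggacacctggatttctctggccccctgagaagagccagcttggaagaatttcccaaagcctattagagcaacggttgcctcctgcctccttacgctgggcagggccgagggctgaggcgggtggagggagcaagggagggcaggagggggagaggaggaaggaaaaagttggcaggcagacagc
The match, GGATTA, lies in the Otx2 window with its first base at position -211 from the start, and none of the other 7 windows held the letters in either direction. Among all windows of this length in the table, with the chromosome of Ttr included, 2054 of 32851 held it, 6.25%. A match of letters is a description and shows no binding.

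**Figure D1:**
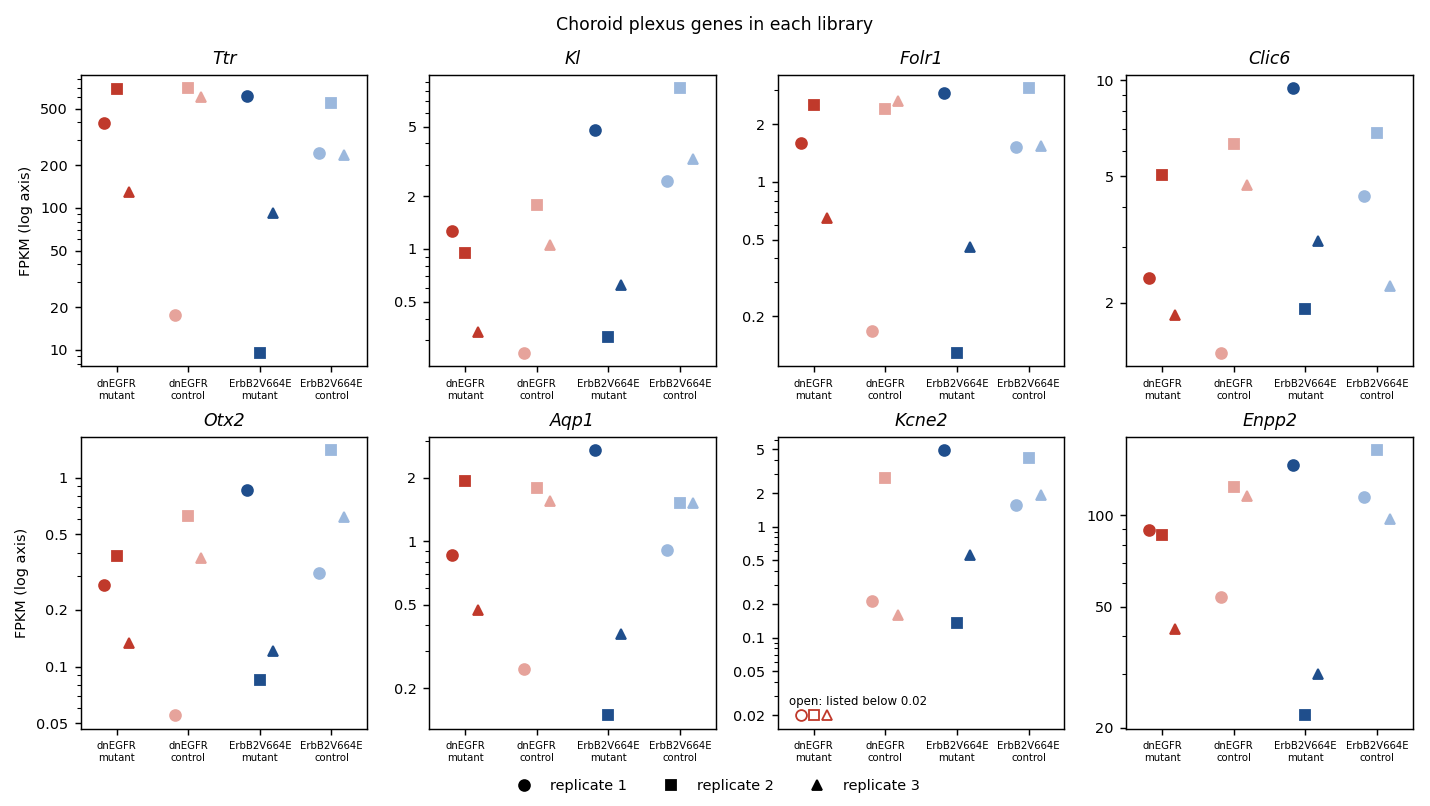
Level of each of the 8 genes in every library, in FPKM on a log axis, by group, with the marker shape giving the replicate number. Within each group the same libraries are high or low for most genes: ErbB2V664E mutant 1 is above mutants 2 and 3 in all 8 panels, and open symbols mark the dnEGFR mutants in which Kcne2 was listed below 0.02 FPKM.

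The libraries kept nearly the same order across the genes. ErbB2V664E mutant 1 was the highest of its 3 libraries for 8 of 8 genes and at least 2-fold above both others for all 8, while 2.48% of all tested loci stood so far above in that library. ErbB2V664E mutant 2 was the lowest for 8 of 8. In the dnEGFR controls, library 1 was the lowest for 7 of 8 and at least 2-fold below both others for 7, against 4.05% of all tested loci. The exception was Kcne2, which was lowest in dnEGFR control 3. In the dnEGFR mutants, library 3 was the lowest for 7 of 8, with 5 genes at least 2-fold below both others, against 3.38% of loci. In the ErbB2V664E controls, library 2 was the highest for 7 of 8, with 5 genes at least 2-fold above both others, against 2.15% of loci; the exception was Aqp1, at 1.52 FPKM in libraries 2 and 3 alike.

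Spread within groups was far larger for these genes than for most loci. The median ratio of the highest to the lowest library of a group lay between 1.31 and 1.35 over the tested loci above 0 in the group, and between 7.51% and 9.14% of loci exceeded 3-fold. Of the choroid plexus genes, 8 of 8 exceeded 3-fold in the ErbB2V664E mutants, 7 in the dnEGFR controls, 4 of the 7 with a ratio in the dnEGFR mutants and 3 in the ErbB2V664E controls. Folr1 spanned 22.7-fold in the ErbB2V664E mutants, against 2.05-fold in the ErbB2V664E controls, and Aqp1 18.2-fold, against 1.69-fold.

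**Figure D2:**
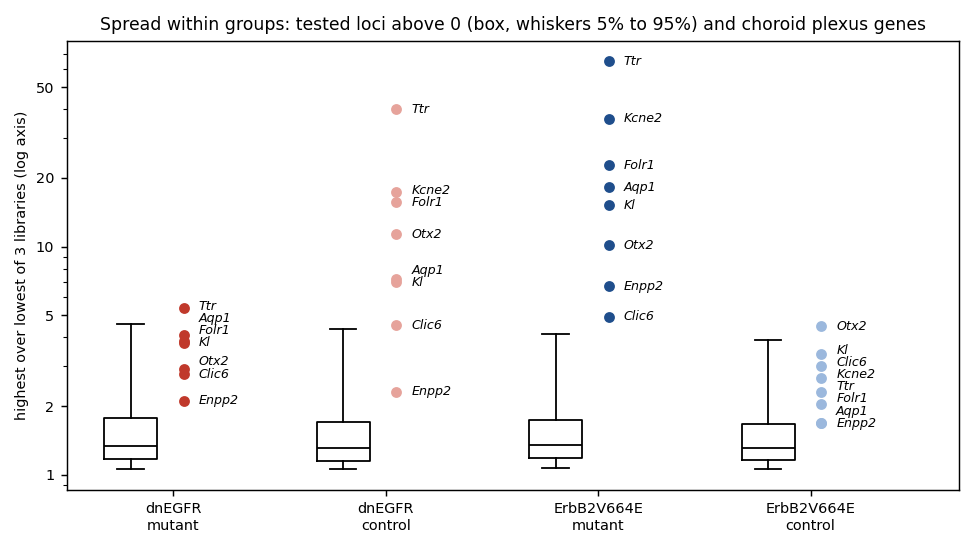
Ratio of the highest to the lowest library within each group, on a log axis, for the choroid plexus genes as points and for the tested loci above 0 as a box (quartiles and median) with whiskers from 5% to 95% of loci. Ttr reaches 64.9-fold in the ErbB2V664E mutants and 39.9-fold in the dnEGFR controls, against a median locus at 1.35-fold and 1.31-fold.

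The levels of the other 7 genes were set against Ttr over the 12 libraries on the log2(FPKM + 1) scale, with permutation tests of 100000 resamples, two-sided, adjusted by Benjamini-Hochberg over 9 relations. Littermates share a litter, so the 12 libraries are not fully independent. By Pearson r Folr1 followed Ttr most closely, and by Spearman rho Aqp1 did. Folr1 had r = 0.95 (p = 1e-05, the smallest these permutations can give; adjusted p = 9e-05) and Spearman rho = 0.86 (p = 0.00068; adjusted p = 0.00306). Without ErbB2V664E mutant 2 and dnEGFR control 1, the libraries farthest from the median in Ttr, r was 0.96. Aqp1 had r = 0.89 (permutation p = 4e-05, adjusted 0.00018) and rho = 0.92 (p = 2e-05, adjusted 0.00018), and r = 0.87 without those 2 libraries. Enpp2 had r = 0.83 (permutation p = 0.00148, adjusted 0.00444) and rho = 0.75 (p = 0.00688, adjusted 0.0124), and r = 0.84 without them. Clic6 had r = 0.76 (permutation p = 0.00255, adjusted 0.00574) and rho = 0.84 (p = 0.00118, adjusted 0.00354), and r = 0.71 without them. Otx2 had r = 0.69 (permutation p = 0.0146, adjusted 0.0263) and rho = 0.80 (p = 0.00244, adjusted 0.00549), and r = 0.61 without them.

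Kl and Kcne2 followed Ttr less closely over both lines together. Kl had r = 0.61 (permutation p = 0.0327, adjusted 0.042) and rho = 0.59 (p = 0.0453, adjusted 0.0583). Without the 2 libraries r was 0.43, so the size of r over 12 libraries depended on them. Within each line Kl followed Ttr more closely, with r = 0.85 over the 6 dnEGFR libraries (exact permutation p = 0.0208, adjusted 0.0375) and r = 0.89 over the 6 ErbB2V664E libraries (exact permutation p = 0.0111, adjusted 0.025). Kcne2 had r = 0.43 (permutation p = 0.168, adjusted 0.168) and rho = 0.24 (p = 0.441, adjusted 0.497) over both lines. Its r was 0.93 in the ErbB2V664E line (exact permutation p = 0.00278, adjusted 0.0167) and 0.26 in the dnEGFR line (exact permutation p = 0.625, adjusted 0.625). Within the dnEGFR line the other genes had r with Ttr between 0.77 for Enpp2 and 0.97 for Folr1, and within the ErbB2V664E line between 0.79 for Clic6 and 0.94 for Folr1.

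Set per 1000 FPKM of Ttr, the lines differed in level for some genes. Kl had a median of 11.95 FPKM per 1000 FPKM of Ttr in the ErbB2V664E line, between 6.69 and 33.1, and 2.56 in the dnEGFR line, between 1.37 and 14.5. Over the 12 libraries Folr1 varied least, by the ratio of highest to lowest. It had a median of 5.93 in the ErbB2V664E line, between 4.72 and 13.5, and 4.18 in the dnEGFR line, between 3.41 and 9.59. In the ErbB2V664E line alone Kcne2 varied less than Folr1. Kcne2 had a median of 7.81 in the ErbB2V664E line, between 6.03 and 14.2, and 0.131 in the dnEGFR line, between 0 and 12.3. No test was made between the lines, whose ages differ.

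**Figure D3:**
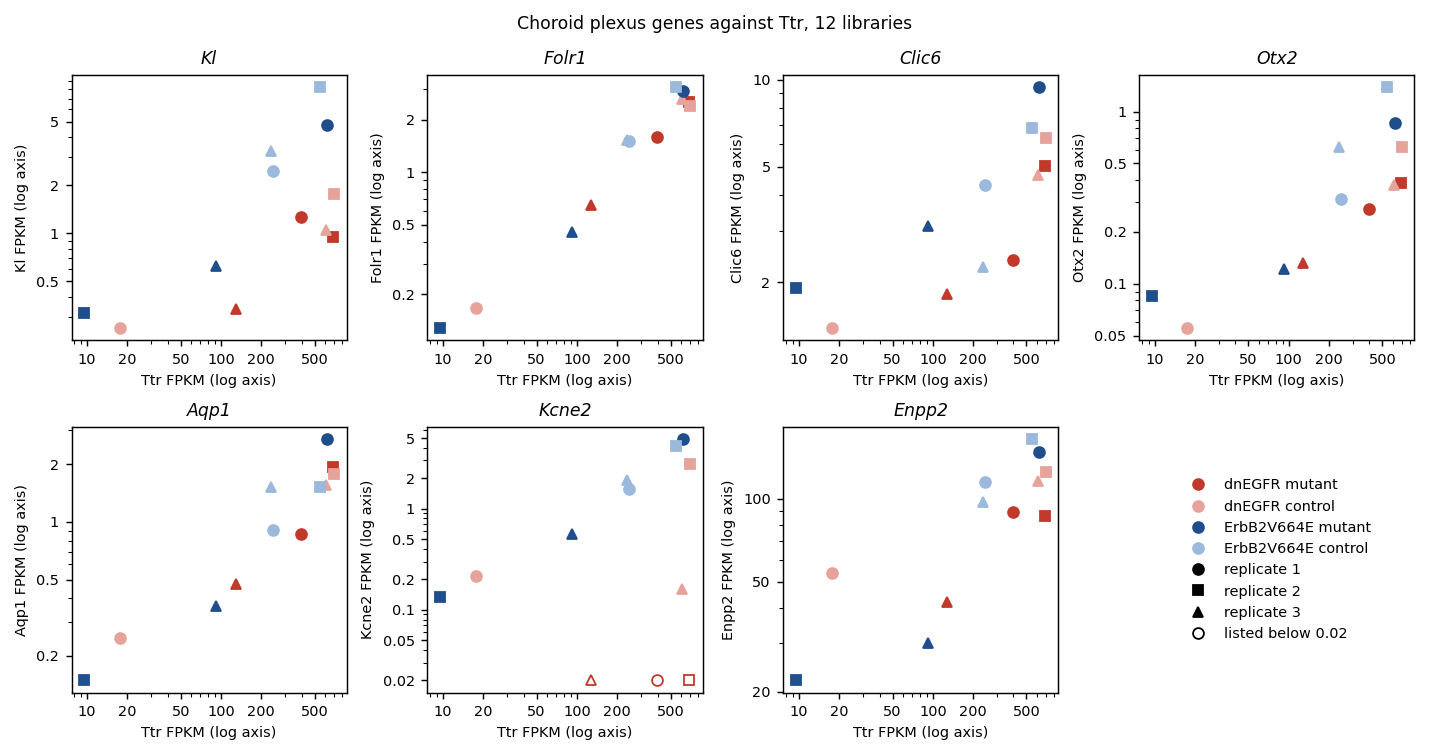
Level of each gene against that of Ttr in the 12 libraries, both in FPKM on log axes, with colour giving the group and shape the replicate number. Folr1 and Aqp1 lie along a single band, Kl is higher in the ErbB2V664E line than in the dnEGFR line where Ttr is high, and Kcne2 is near 0 in the dnEGFR mutants at every level of Ttr.

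Mutants were compared with controls by limma on log2(FPKM + 1) over the 13803 loci that reached 1 FPKM in at least 3 libraries, with p-values adjusted by Benjamini-Hochberg over those loci. Of the choroid plexus genes 7 were tested; Otx2 was not. The filter reads all 12 libraries together.

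In the dnEGFR line none of the 7 genes passed an adjusted p of 0.05, and none had an unadjusted p under 0.05. Over all loci 0.0942% passed the adjusted threshold and 5.69% had an unadjusted p under 0.05. Ttr averaged 404 ± 280 FPKM in dnEGFR mutants and 441 ± 370 FPKM in dnEGFR controls (SD, n = 3 each). Its log2 change was 0.72 with a standard error of 1.61 and a 95% interval between -2.86 and 4.30 (limma, adjusted p = 1). The mean of FPKM was lower in the mutants while the log2 change was positive, since dnEGFR control 1 weighs more on the log scale. Changes larger than 4-fold in both directions lie inside that interval.

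For the other dnEGFR changes the standard errors were smaller. Enpp2 averaged 72.6 ± 26.3 FPKM in dnEGFR mutants and 98.0 ± 38.5 FPKM in dnEGFR controls, a log2 change of -0.41 with an interval between -1.83 and 1.01. Kl had a log2 change of -0.09 with an interval between -1.36 and 1.17, and Folr1 one of 0.02 with an interval between -1.19 and 1.24. Aqp1 had a log2 change of -0.05 with an interval between -1.07 and 0.98, and Clic6 one of -0.26 with an interval between -1.51 and 0.99. Kcne2, for which the groups did not overlap, had a fitted difference of -0.80 on the log2(FPKM + 1) scale with a standard error of 0.62 (limma, adjusted p = 0.987). That value depends on the pseudocount and on the listed zeros, and without dnEGFR control 2 it was -0.25. Kcne2 was the only one of the 8 genes with groups that did not overlap in this line, where 10.1% of tested loci did not overlap in either direction.

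In the ErbB2V664E line again none of the 7 passed, and none had an unadjusted p under 0.05, against 0.275% of loci past the adjusted threshold and 12.1% with an unadjusted p under 0.05. Ttr averaged 240 ± 329 FPKM in ErbB2V664E mutants and 342 ± 176 FPKM in ErbB2V664E controls, with a log2 change of -1.90 and an interval between -5.49 and 1.68 (limma, adjusted p = 0.69). Enpp2 averaged 66.4 ± 70.1 FPKM in ErbB2V664E mutants and 126 ± 34.7 FPKM in ErbB2V664E controls, with a log2 change of -1.39 and an interval between -2.81 and 0.03 (limma, adjusted p = 0.418). Kl averaged 1.90 ± 2.49 FPKM in ErbB2V664E mutants and 4.68 ± 3.18 FPKM in ErbB2V664E controls, with a log2 change of -1.16 and an interval between -2.43 and 0.10 (limma, adjusted p = 0.45). These are the 3 changes of largest size among the 7, each with an SD in the mutants that exceeds the mean.

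The remaining ErbB2V664E changes were smaller. Folr1 had a log2 change of -0.67 (interval -1.89 to 0.54), Kcne2 of -0.64 (interval -2.01 to 0.73), Aqp1 of -0.35 (interval -1.38 to 0.67) and Clic6 of -0.04 (interval -1.29 to 1.21). None of the 8 genes had groups that did not overlap, against 18.2% of tested loci. All 7 log2 changes were negative, with a median of -0.67, against 0.00 over all tested loci; since the 7 genes share the order of the libraries, they are no independent counts of a direction. In the dnEGFR line 2 were positive and 5 negative, with a median of -0.09, against 0.01 over all loci.

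The size of these changes depended on single libraries, most of all on ErbB2V664E mutants 1 and 2. Without mutant 1 Enpp2 alone passed, with a log2 change of -2.21 (limma, adjusted p = 0.0424; over all alternatives between 0.0424 and 0.780), and the median over the 7 genes was -1.35, with Ttr at -3.34. Without mutant 2 the changes were smaller, with a median of -0.31, Ttr at -0.40, Enpp2 at -0.86 and Aqp1 at -0.03. In the fit without mutant 1 the loci called over the whole table numbered 262, against 38 with all libraries. Without dnEGFR control 1 the median over the genes in the dnEGFR line was -0.73, and Ttr had a log2 change of -0.99 there, against 0.72 with it.

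The difference between the mutant effects, the ErbB2V664E effect minus the dnEGFR effect, was tested in the same fit. None of the 7 genes passed, and none had an unadjusted p under 0.05, against 0.116% and 9.01% of loci. The largest difference was that of Ttr, -2.62 with an interval between -7.69 and 2.44 (limma, adjusted p = 0.76). Kl had a difference of -1.07 with an interval between -2.86 and 0.72 (limma, adjusted p = 0.727). The adjusted p-values of the 7 lay between 0.727 and 0.973, and their median difference was -0.70, against 0.00 in size over all loci. The order of the groups by mean Ttr was dnEGFR controls, dnEGFR mutants, ErbB2V664E controls, ErbB2V664E mutants, and no neighbours in that order differed beyond their spread.

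**Figure D4:**
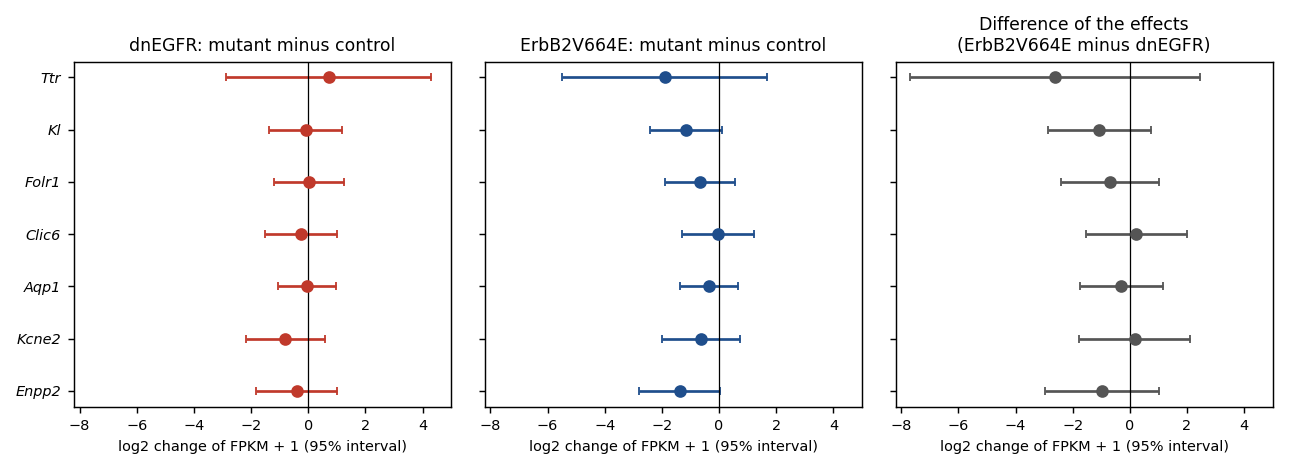
Log2 change of each tested gene with its 95% interval, on the log2(FPKM + 1) scale, mutant over littermate control, in the dnEGFR line, in the ErbB2V664E line and as the ErbB2V664E effect minus the dnEGFR effect. Every interval includes 0; Ttr has the widest, between -5.49 and 1.68 in the ErbB2V664E line.

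Each mutant had a control of the same litter, and the litters differed from each other in direction. In litter 1 of the dnEGFR line, 7 of 8 genes were higher in the mutant and Ttr was 22.5-fold the control's level. In litter 2 Ttr was 0.985-fold, with 2 genes higher and 6 lower, and in litter 3 it was 0.212-fold, with all 8 lower. In the ErbB2V664E line, litter 4 had 8 of 8 genes higher in the mutant and Ttr at 2.53-fold. In litter 5 all 8 were lower and Ttr was 0.0174-fold, and in litter 6 it was 0.391-fold, with 7 lower and 1 higher, Clic6. The median log2 difference over all tested loci within a litter was at most 0.02 in size. In a fit with the litter as a block, none of the 7 genes passed in either line.

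Other choroid plexus genes were looked for from a list of 48, of which 47 had a locus and 33 were tested. None passed in the dnEGFR line, where 2 had an unadjusted p under 0.05 with a positive change and 2 with a negative one, in all 4 of 33 beside 5.69% of all loci. None passed in the ErbB2V664E line either, where 5 had an unadjusted p under 0.05, all with a negative change, beside 12.1% of all loci. None passed in the difference of the effects, where 4 had such a p, all negative, beside 9.01% of all loci. The median log2 change was -0.09 in the dnEGFR line, with 12 positive and 21 negative, and -0.40 in the ErbB2V664E line, with 7 positive and 26 negative.

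The order of the libraries in that list was close to that of the 8 genes. ErbB2V664E mutant 1 was the highest of its group for 42 of the 47 and at least 2-fold above both others for 31. ErbB2V664E mutant 2 was the lowest for 35 of 47. dnEGFR control 1 was the lowest of its group for 39 of 47, at least 2-fold below both others for 28, and dnEGFR mutant 3 the lowest for 30. ErbB2V664E control 2 was the highest of its group for 36 of 47. Of the 47, 6 were listed at 0 in at least 1 library.

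Of the 10 with the highest mean level, Slc12a2, a sodium, potassium and chloride cotransporter used in secretion of cerebrospinal fluid, averaged 10.1 FPKM in dnEGFR mutants and 17.7 FPKM in dnEGFR controls. Its log2 change was -0.81 there (limma, adjusted p = 0.604), and -0.70 in the ErbB2V664E line (adjusted p = 0.258). Its groups did not overlap in either line. Among the 10, Slc31a1 and Cab39l also had groups without overlap in the dnEGFR line, and Igf2 and Tcn2 in the ErbB2V664E line. Of all tested loci, 10.1% did not overlap in the dnEGFR line and 18.2% in the ErbB2V664E line. Slc12a2 is also expressed by other brain cells. Slc31a1, the copper importer, averaged 6.87 FPKM in dnEGFR mutants and 1.39 FPKM in dnEGFR controls, a log2 change of 1.72 (limma, adjusted p = 0.394). Igf2, the insulin-like growth factor 2, averaged 3.89 FPKM in ErbB2V664E mutants and 10.1 FPKM in ErbB2V664E controls, and its log2 change was -1.13 (limma, adjusted p = 0.321). Igfbp2, a binding protein of such factors, had a log2 change of -1.25 in the ErbB2V664E line (limma, adjusted p = 0.332), and Tcn2, the carrier of vitamin B12, one of -0.44 (limma, adjusted p = 0.253). Vat1l had a log2 change of -0.99 in the dnEGFR line (limma, adjusted p = 0.835). Cab39l, Ace, Col9a3 and 1500015O10Rik had no unadjusted p under 0.05 in any comparison, with log2 changes between -0.59 and 0.25 in the dnEGFR line and between -1.29 and 0.03 in the ErbB2V664E line.

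The loci most like Ttr over the 12 libraries, by Pearson r of log2(FPKM + 1) among 13802 other tested loci, included members of both lists. Folr1 ranked 1, Aqp1 7, Enpp2 16, Clic6 56, Kl 293 and Kcne2 1323. Leaving out the 8 genes, Kcnj13, an inwardly rectifying potassium channel of choroid plexus epithelium, came first with r = 0.92. Its level was 3.96, 0.0376 and 0.244 FPKM in ErbB2V664E mutants, against 2.22, 5.51 and 2.94 FPKM in ErbB2V664E controls, with the high and low libraries those of Ttr. Among the 10 most like Ttr were also 1500015O10Rik (r = 0.91), Prr32 (0.90), C330007P06Rik (0.90), Smpdl3a (0.88), the keratin gene Krt18 (0.87), the tight junction gene Cldn2 (0.87), Sostdc1, a secreted antagonist of BMP and Wnt signals (0.87), and Igfbp2 (0.84). Of the 10, 6 stand in the list of other choroid plexus genes.

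An r above 0.8 with Ttr was held by 3 of the other 7 genes, by 27.3% of the 33 other choroid plexus genes tested and by 0.217% of all tested loci. No gene of the ependymal, oligodendrocyte, endothelial, red blood cell, hippocampal or striatal lists held one, and 1 of 7 in the meningeal and stromal list did.

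Markers of other cell types were measured in the same libraries. The 20 oligodendrocyte genes summed to between 910 and 1324 FPKM in ErbB2V664E mutants and between 1384 and 2177 FPKM in ErbB2V664E controls; 4 of 20 fell in the mutants by the test over all loci (Mag, Gsn, Klk6 and Enpp6), and the median log2 change was -0.82. Over the 16 oligodendrocyte loci with 1 symbol the sums overlapped, between 723 and 1010 FPKM in ErbB2V664E mutants and between 983 and 1679 FPKM in ErbB2V664E controls. In the dnEGFR line 1 of 20 fell, Klk6, with sums between 1276 and 1485 FPKM in mutants and between 1274 and 1492 FPKM in controls. The 5 red blood cell genes summed to between 22.1 and 118 FPKM in ErbB2V664E mutants and between 95.5 and 214 FPKM in ErbB2V664E controls, with ErbB2V664E mutant 1 the highest mutant. By limma 0 of those 5 passed, with a median log2 change of -1.57 and an unadjusted p under 0.05 for all 5. The 16 meningeal and stromal genes summed to between 161 and 266 FPKM in ErbB2V664E mutants and between 61.6 and 70.1 FPKM in ErbB2V664E controls, and 0 of 7 tested passed, with an unadjusted p under 0.05 for 2. Most of that sum was Ptgds, with 120, 191 and 221 FPKM in ErbB2V664E mutants, against 36.3, 49.0 and 41.9 FPKM in ErbB2V664E controls, and Nnat. Without both, the other 14 summed to between 11.4 and 20.5 FPKM in ErbB2V664E mutants and between 16.5 and 18.4 FPKM in ErbB2V664E controls. The 20 ependymal genes, which mark the ventricle lining, summed to between 39.8 and 41.4 FPKM in ErbB2V664E mutants and between 40.1 and 50.2 FPKM in ErbB2V664E controls, and 0 of 14 tested passed. An unadjusted p under 0.05 was held by 6 with a negative change and by 1 with a positive one, the locus of Cdhr4, which holds 4 other symbols, beside 12.1% of all loci. Over the 17 ependymal loci with 1 symbol the sums did not overlap, between 8.38 and 10.8 FPKM in ErbB2V664E mutants and between 13.6 and 17.7 FPKM in ErbB2V664E controls. The part of any of these lists in the choroid plexus values was not tested.

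**Figure D5:**
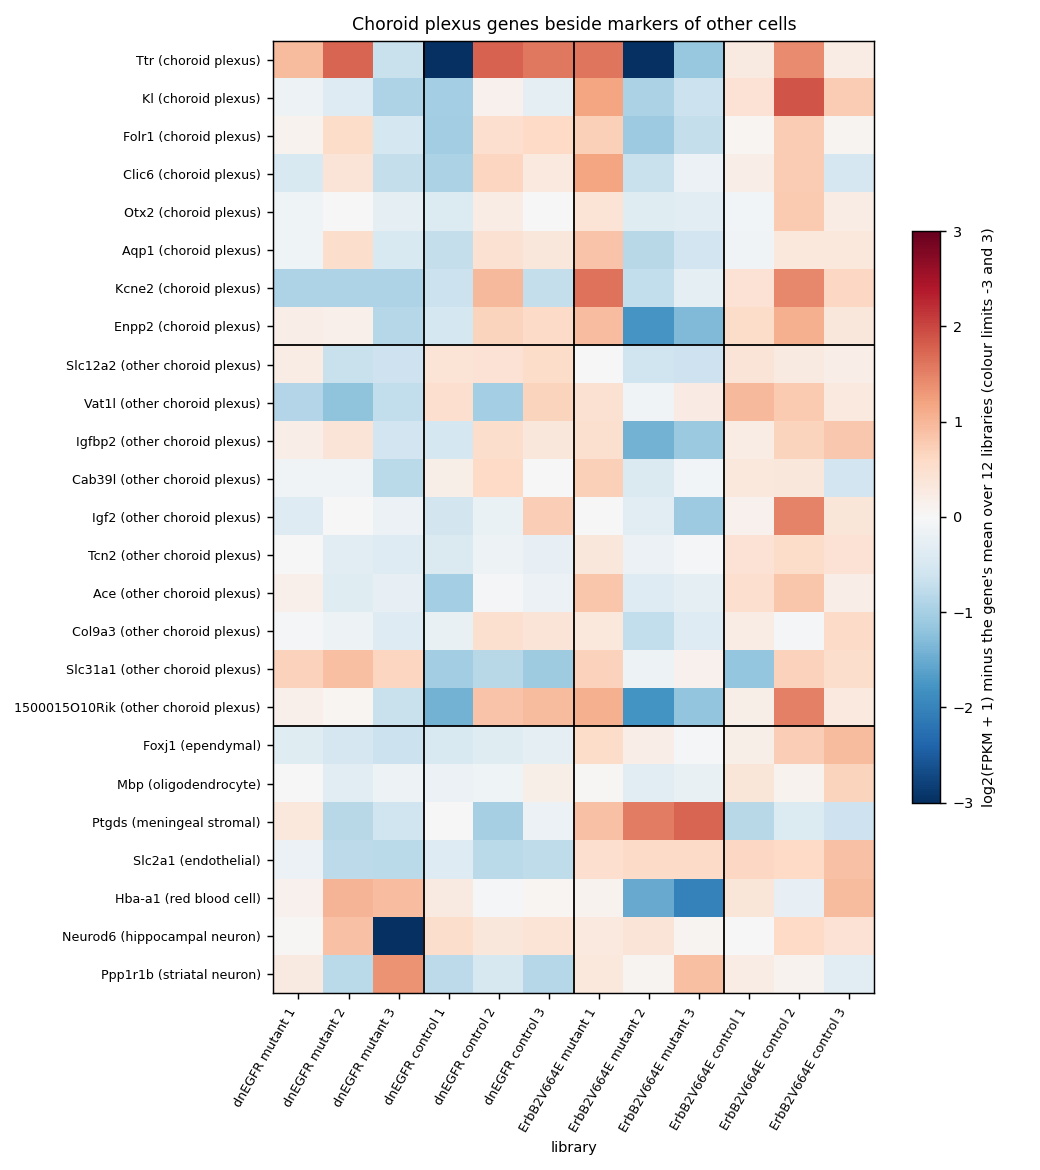
Level of the 8 choroid plexus genes, of the 10 further choroid plexus genes with the highest mean and of the gene with the highest mean in each other marker list, as log2(FPKM + 1) minus the gene's mean over the 12 libraries, with libraries in columns by group. The locus of the ependymal gene shown, Foxj1, also holds the symbol Rnf157. ErbB2V664E mutant 2 and dnEGFR control 1 are below the mean for all 8 choroid plexus genes, and ErbB2V664E mutant 1 and ErbB2V664E control 2 are above it for all 8.

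In ErbB2V664E mutants 1 and 2, with 617 and 9.49 FPKM of Ttr, the 17 ependymal loci with 1 symbol summed to 10.8 and 8.38 FPKM. In dnEGFR controls 1 and 2, with 17.53 and 699 FPKM of Ttr, they summed to 19.8 and 25.8 FPKM. The ependymal sums were lower in the library with less Ttr in both pairs, which were picked from the 12 libraries. Over the 3 libraries of a group the sums of these 17 loci had the order of Ttr in every group but the dnEGFR mutants. There the order was the opposite: mutants 1, 2 and 3, with 395, 689 and 128 FPKM of Ttr, had sums of 22.74, 22.15 and 25 FPKM. The sums of all 20 ependymal genes had the order of Ttr in the dnEGFR controls only. They were 41.36, 39.89 and 39.82 FPKM in ErbB2V664E mutants 1, 2 and 3, and 40.1, 48.54 and 50.23 FPKM in ErbB2V664E controls 1, 2 and 3. A relation of these sums to Ttr was not tested. None of the 13 endothelial genes tested passed in the dnEGFR line and 1 did in the ErbB2V664E line, Vwf, which rose. The hippocampal and striatal lists, which would mark tissue from next to the ventricles, had no gene past the limma test in either line. In the dnEGFR line an unadjusted p under 0.05 was held by 1 of 7 hippocampal genes, lower in mutants, and 3 of 11 striatal genes, higher in mutants, beside 5.69% of all loci. In the ErbB2V664E line 2 of 7, both lower, and 0 of 11 held one, beside 12.1% of all loci. All 11 striatal changes were positive in the dnEGFR line, with a median of 0.57. In the ErbB2V664E line 2 were positive and 9 negative, with a median of -0.18. The 11 genes were measured in the same libraries, so they are no independent counts of a direction. Their sums overlapped in the dnEGFR line. They were 416.5, 199.9 and 472.1 FPKM in dnEGFR mutants 1, 2 and 3, and 218.2, 243.5 and 160.3 FPKM in dnEGFR controls 1, 2 and 3.

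Enpp2 was set beside the myelin gene Mbp, since oligodendrocytes express it too. It had r = 0.55 (permutation p = 0.0632, adjusted 0.0711) and rho = 0.68 (p = 0.0184, adjusted 0.0276) over the 12 libraries, and r = 0.37 without ErbB2V664E mutants 2 and 3. Enpp2 itself held 3 of the other 7 choroid plexus genes and 14 of the 47 further ones among its 50 most similar loci, with Igfbp2 the nearest at r = 0.95.

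The genes also had each other among their nearest loci. Among the 50 loci most like each, Otx2 had 6 of the other 7, Folr1 and Aqp1 had 4, Ttr, Clic6 and Enpp2 had 3, and Kl and Kcne2 had 1. Otx2 was nearest to Kl (r = 0.95), Kl to Trpv4, a cation channel (r = 0.96), Folr1 to Kcnj13 (r = 0.98), Aqp1 to Folr1 (r = 0.94), Clic6 to Tmem72 (r = 0.92) and Kcne2 to Paqr5 (r = 0.90).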

How the data were processed

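Poly(A) RNA of subcortical white matter from 12 mice was sequenced in pairs, per the labels' protocols. The authors deposited FPKM per locus, made with HISAT and StringTie per the submitters' processing notes; neither genome build nor annotation is given in the sources used here. Exact zeros were kept. Groups came from the labels. limma 3.58.1 (R 4.3.3) was fitted to log2(FPKM + 1) with 4 group means and a variance trend, over 13803 loci with at least 1 FPKM in 3 libraries, and was tested on simulated data. Fold changes on that scale understate the change of low genes. Relations between genes were tested by permutation with numpy 2.4.6, and ranks were taken with scipy 1.17.1.

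The labels name each control as the littermate of 1 mutant, so litter was tried as a block; littermates' deviations from their group means correlated between -0.025 and 0.033. Each library is 1 mouse.

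The genes and lists were chosen with earlier results of these data known; single-symbol list sums were added after seeing the data. Named genes were the 8, the 10 highest by mean level of the further choroid plexus list, those of it that passed, the 10 loci most like Ttr, and the 2 highest by mean of each other list; a few of these are not reported here. In the other lists, genes that passed are named because their count was 5 or fewer.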

Additional observations from a re-analysis of the deposited data

How the results depend on the processing

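None of the 7 genes tested passed the threshold under any alternative in any comparison, except Enpp2 in the ErbB2V664E line without ErbB2V664E mutant 1 (log2 change -2.21), so that the number passing lay between 0 and 1 when single libraries were left out. With a replicate block for litter, the number of genes passing stayed 0 in all 3 comparisons, while the loci called over the whole table fell to 3, 7 and 4, against 13, 38 and 16 without it. In the 24 cases where a change of sign occurred, the cause was not tested. With a pseudocount of 0.1, the dnEGFR change of Aqp1 was 0.016, against -0.05.

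When single libraries were left out, the dnEGFR log2 changes lay between -0.99 and 1.63 for Ttr, -0.40 and 0.17 for Kl, -0.51 and 0.31 for Folr1, -0.73 and 0.071 for Clic6, -0.41 and 0.17 for Aqp1, -1.09 and -0.25 for Kcne2, and -0.79 and -0.07 for Enpp2. In the ErbB2V664E line they lay between -3.34 and -0.40 for Ttr, -1.82 and -0.73 for Kl, -1.21 and -0.31 for Folr1, -0.57 and 0.35 for Clic6, -0.88 and -0.03 for Aqp1, -1.35 and -0.16 for Kcne2, and -2.21 and -0.86 for Enpp2, and their median between -1.35 and -0.31. The differences of the effects lay between -0.31 and 0.70 for Clic6, -0.83 and 0.060 for Aqp1, and -0.55 and 0.64 for Kcne2.

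The median ErbB2V664E change of -0.67 was -1.41 with a pseudocount of 0.1 and -1.39 over the 3 genes left by a filter of 5 FPKM. Summing loci per symbol changed nothing, since each gene has 1 locus. With 3 libraries a group and spreads of this size, changes well beyond 2-fold in Ttr could not be detected, and the fragments behind Otx2, Folr1 and Kcne2 were few.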
